A study of Homo sapiens with 14 samples.

Results

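The genes described here are 47 genes of the lysosome and of autophagy, chosen by symbol from the array annotation, out of 18398 genes with a row of their own. They comprise 10 proteases, 9 glycan-degrading enzymes (8 glycosidases and the sulfatase IDS, plotted together as glycosidases), 7 genes of lipid handling, 8 genes of membrane proteins, 8 genes of the proton pump and 5 genes of autophagy. Each of the 47 was found, and where a gene had more than 1 row, as IDS did, the row with the highest mean was used. Members were chosen with earlier results of these data known, so their counts are descriptions. Where the same share over all genes was taken, the counts are read beside it.

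The cells were OVCAR-3, an established human ovarian carcinoma line, and sublines of it resistant to PHA-533533, an inhibitor of the cell cycle kinase CDK2. Selected arrays (n = 5) hold RNA of 5 independently derived sublines, R1, R3, R5, R6 and R7, at passage 5 in 4 µM PHA-533533. Stable arrays (n = 5) hold RNA of the same 5 sublines at passage 10 or later in 0 µM, and parental arrays (n = 4) hold RNA of OVCAR-3 cells never selected, also in 0 µM. Every culture was grown in RPMI medium with fetal calf serum and was subconfluent when collected, per the labels. Inhibitor and passage changed together between selected and stable arrays and cannot be told apart, each subline has 1 array per condition, and the parental replicates are not said in the labels to come from separate cultures, in which case p-values rest on a spread that may be technical.

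Values are deposited Affymetrix signals on a log scale taken as base 2, so a difference of 1 is a doubling of signal. The median over all rows lay between 7.54 and 7.68 per array, and precision is limited by how few arrays there are. Signal from 340 olfactory receptor genes, seldom transcribed outside the nose, served as a measure of background, and its mean was 6.35 ± 0.21 in selected, 6.50 ± 0.21 in stable (SD, n = 5 each) and 6.42 ± 0.22 in parental arrays (SD, n = 4). Within each of the 5 sublines the selected array had the lower mean, with differences of -0.38 in R7 and -0.14 to -0.03 in the other 4. Of the members 44 lay above 7.764, the 95th percentile of the olfactory gene means, and CTSK, CTSS and GAA did not. All 9 markers of ovarian carcinoma epithelium lay above that level, as did 2 of 9 macrophage markers (CD14 and TYROBP), 2 of 6 fibroblast markers (COL1A1 and COL1A2) and 0 of 3 melanocyte markers.

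Lysosomes are acidic compartments in which hydrolases break down protein, glycan and lipid that arrive by endocytosis or by autophagy, the process that wraps cytoplasm in a membrane and delivers it for digestion. A proton pump, the V-ATPase, keeps them acidic, and highly glycosylated membrane proteins line them. Many of these genes share a promoter element around an E-box, the coordinated lysosomal expression element, which is read by the MiT factors TFEB, TFE3 and MITF.

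The promoter stretches below are printed because they show that element. RefSeq windows (GRCh38.p14, 250 bases before to 50 after the annotated start) were given for 34 of the 47 members. Capitals mark the E-box core CACGTG or the longer motif TCACGTGA, and each stretch ends before the annotated start. Both motifs equal their own reverse complement, so a match holds for both strands, and every longer motif contains a core.
LAMP1 (chr13:113297027-113297237, + strand): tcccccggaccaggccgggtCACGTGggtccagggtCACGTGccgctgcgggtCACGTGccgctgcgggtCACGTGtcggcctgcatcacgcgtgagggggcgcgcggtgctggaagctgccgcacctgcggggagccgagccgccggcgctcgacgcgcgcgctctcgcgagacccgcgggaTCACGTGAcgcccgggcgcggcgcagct
CTSA (chr20:45891273-45891334, + strand): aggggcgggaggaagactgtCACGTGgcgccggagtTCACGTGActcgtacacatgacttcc
MCOLN1 (chr19:7522562-7522623, + strand): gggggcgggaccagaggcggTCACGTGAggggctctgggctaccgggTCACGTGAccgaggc
GAA (chr17:80101484-80101576, + strand): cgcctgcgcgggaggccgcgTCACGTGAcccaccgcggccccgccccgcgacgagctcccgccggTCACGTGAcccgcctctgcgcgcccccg
LAMP1, CTSA and MCOLN1 were picked because they hold the longer motif and were higher in selected cells in at least 1 comparison given here. That they were higher thus follows from the choice. IGF2R, CLN3 and ATP6V0D1 also held the longer motif, were not called in the main fits and are not printed. GAA, an acid glucosidase that digests glycogen, was higher in none, and was added after its values were seen. Its mean over all arrays, 7.536, lay under the olfactory level of 7.764, so a change in GAA could be missed.

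The core was present in 11 of 34 member windows (32.4%), against 8.88% of the windows of 14227 measured genes. The longer motif was present in 7 of 34 (20.6%), against 1.48% of those windows. Other genes of the same pathway, outside the members, held the core in 14 of 90 windows (15.6%) and the longer motif in 7 of 90 (7.78%). Among the members, by role, the core was found in 5 of 7 windows of membrane proteins, 3 of 7 of proteases and 2 of 7 of glycan-degrading enzymes. It was in 1 of 4 windows of the pump, 0 of 5 of lipid handling and 0 of 4 of autophagy. LAMP1 held 6 cores, 2 of them within the longer motif, while IGF2R held 3 and CTSA, CTSF, GAA, MCOLN1 and CLN3 held 2 each. Of the members higher in selected than in parental cells 3 of 12 with a window held the core (25%), and of those not called 8 of 22 (36.4%).

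**Figure D1:**
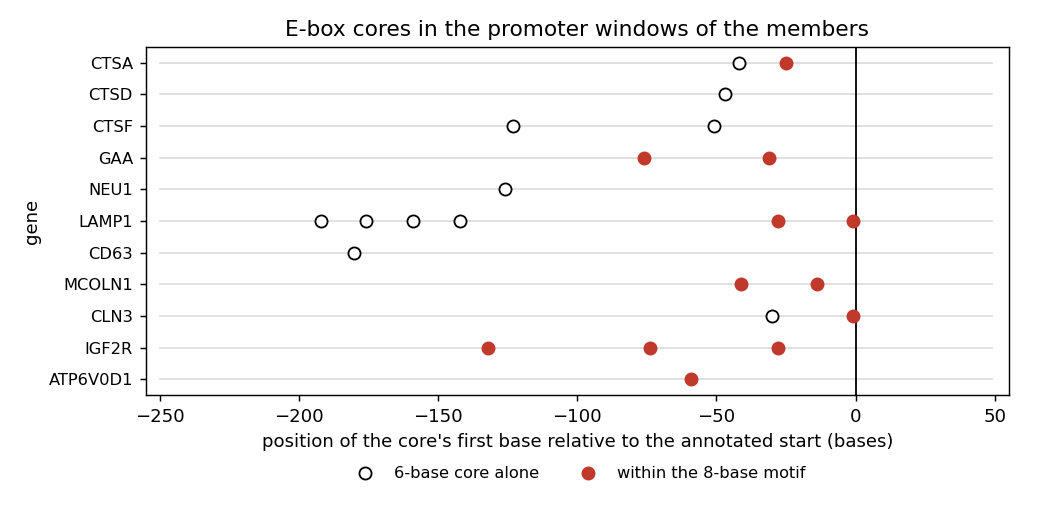
Position of each E-box core relative to the annotated start, in bases, in the 11 member promoter windows that hold one. Filled points lie within the 8-base motif and open points are the 6-base core alone. All cores begin upstream of the start, and LAMP1 has the most.

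The comparison of selected with parental cells sets sublines growing in the inhibitor against the cells they came from. In selected cells 16 of the 47 genes were higher and 0 lower by limma at an adjusted p under 0.05. Over all genes 6.92% were called, 5.03% higher and 1.89% lower. Of the 47 differences 41 were above 0, with a median of 0.25, against -0.01 over all genes and 0.03 over the 11039 genes kept by a filter on dim signal. Every selected array lay above every parental array for 17 members and below for 0, beside 6.81% and 2.96% of all genes. Without adjustment limma gave p under 0.05 for 24 of the 47 (51.1%), against 20.3% of all genes.

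**Figure D2:**
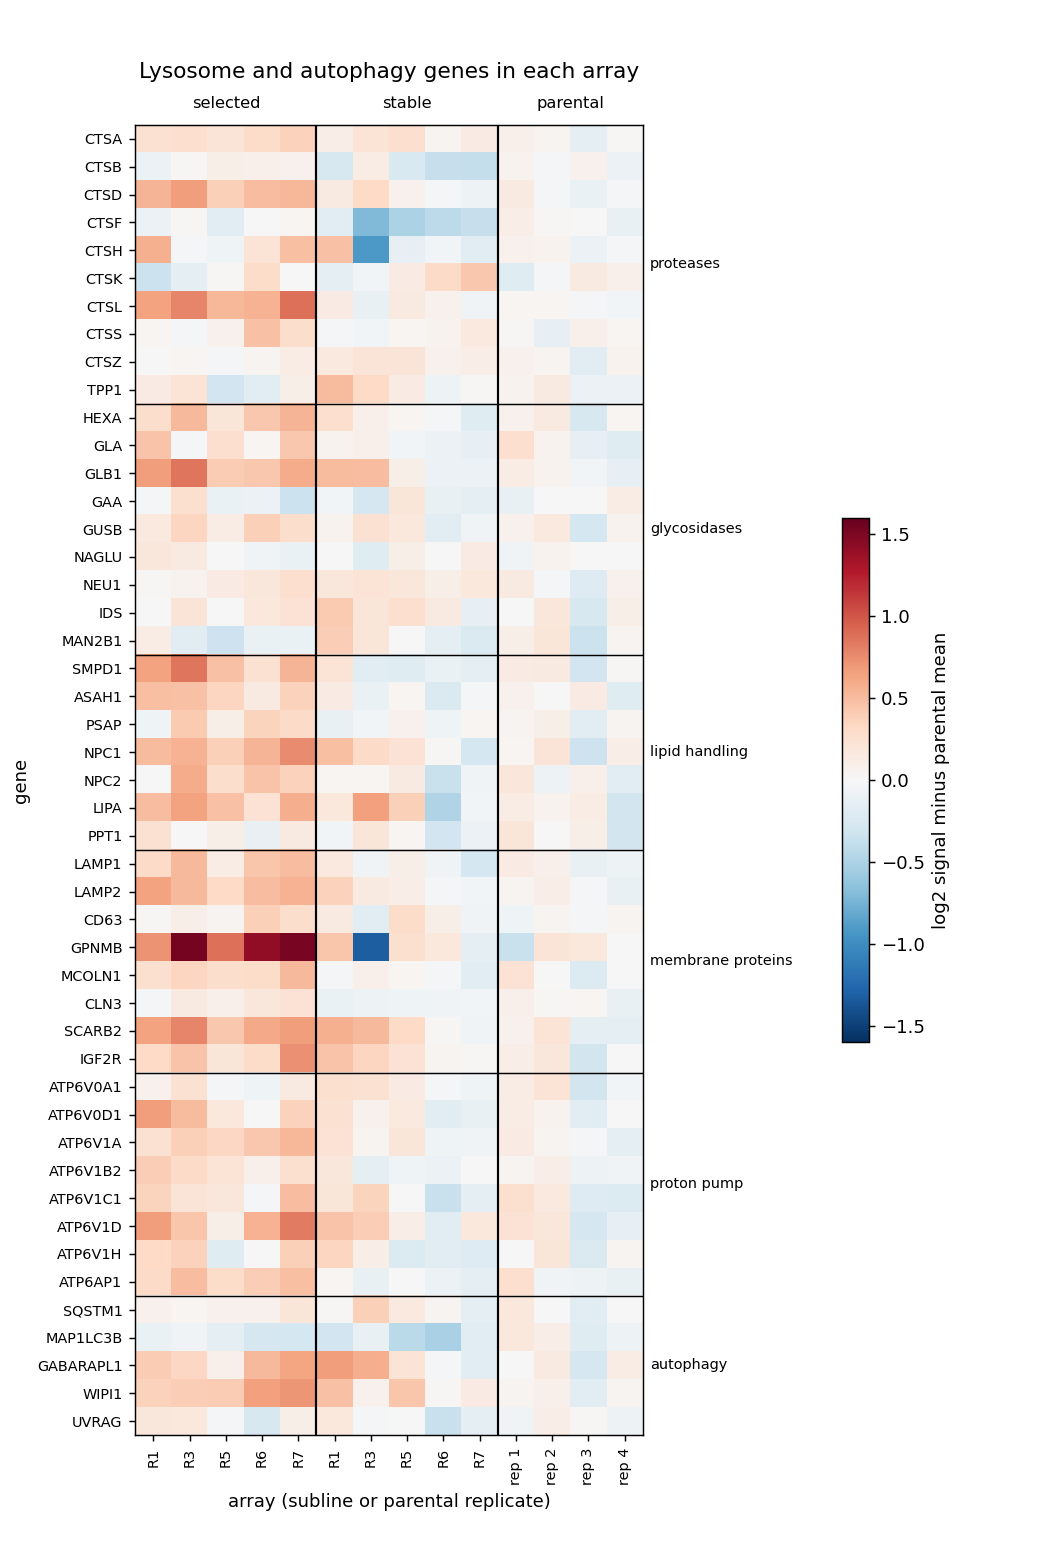
Log2 signal of the 47 genes in each array minus the gene's parental mean, by role, with selected arrays on the left, then stable, then parental. Red is above the parental mean. GPNMB, SCARB2, CTSL and GLB1 are red in all 5 selected arrays, and GPNMB is lowest in the stable array of R3.

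Among the proteases CTSL, CTSD and CTSA were higher in selected cells and the other 7 of 10 did not pass. The cysteine protease CTSL had a log2 signal of 8.56, 8.69, 8.45, 8.47 and 8.79 in the selected arrays of R1, R3, R5, R6 and R7, 8.04, 7.80, 8.05, 7.98 and 7.86 in their stable arrays, and 7.95, 7.94, 7.89 and 7.87 in parental replicates 1 to 4. All 5 selected arrays thus lay above all 9 others. Its difference from parental cells was 0.68 (SE 0.08, adjusted p = 0.00127), a 1.61-fold change. CTSD, the main aspartic protease of lysosomes, had 11.64, 11.76, 11.48, 11.59 and 11.63 in selected, 11.24, 11.42, 11.16, 11.08 and 11.01 in stable, and 11.24, 11.08, 10.99 and 11.07 in parental arrays. Again the lowest selected array was above the highest of the other groups, and the difference from parental cells was 0.53 (SE 0.08, adjusted p = 0.0038). CTSA, a carboxypeptidase that also protects the sialidase NEU1 and the galactosidase GLB1, averaged 11.98 ± 0.06 in selected cells (SD, n = 5) and 11.71 ± 0.11 in parental cells (SD, n = 4), a difference of 0.27 (adjusted p = 0.0462). The class median was 0.10. CTSB, a cysteine protease, was at 0.03 (adjusted p = 0.861), the aminopeptidase CTSH at 0.24 (adjusted p = 0.358) and the peptidase TPP1 at -0.01 (adjusted p = 0.972).

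Of the 9 glycan-degrading enzymes, GLB1 and HEXA were higher. GLB1, the beta-galactosidase that trims gangliosides, had 11.07, 11.26, 10.81, 10.83 and 10.99 in selected, 10.90, 10.89, 10.49, 10.31 and 10.30 in stable, and 10.52, 10.46, 10.35 and 10.27 in parental arrays. The difference from parental cells was 0.59 (SE 0.10, adjusted p = 0.00651), and in stable cells R1 and R3 also lay above all parental arrays while R5, R6 and R7 did not. HEXA, the alpha subunit of beta-hexosaminidase, had 10.09, 10.32, 10.00, 10.23 and 10.35 in selected, 10.07, 9.88, 9.83, 9.79 and 9.61 in stable, and 9.87, 9.95, 9.55 and 9.84 in parental arrays. It differed by 0.39 (SE 0.10, adjusted p = 0.0407), and its lowest selected array stood just above its highest parental array. The other 7 lay between -0.12 for the mannosidase MAN2B1 and 0.25 for the glucuronidase GUSB, and none passed. The class median was 0.13.

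All 7 genes of lipid handling had differences above 0, and 4 were higher. SMPD1, the acid sphingomyelinase that makes ceramide, had 8.57, 8.78, 8.39, 8.17 and 8.46 in selected, 8.14, 7.74, 7.73, 7.82 and 7.77 in stable, and 8.05, 8.07, 7.62 and 7.94 in parental arrays. The lowest selected array, R6, was 8.17, above the highest array of either other group, and the difference from parental cells was 0.55 (SE 0.13, adjusted p = 0.0248). NPC1, which passes cholesterol out of lysosomes, had 10.71, 10.75, 10.58, 10.74 and 10.96 in selected, 10.68, 10.51, 10.43, 10.22 and 9.92 in stable, and 10.23, 10.40, 9.87 and 10.30 in parental arrays. Its difference was 0.55 (SE 0.11, adjusted p = 0.0147), and of the stable arrays R1, R3 and R5 lay above every parental array while R6 and R7 lay among them. LIPA, the acid lipase that frees cholesterol from its esters, had 9.58, 9.73, 9.56, 9.32 and 9.67 in selected, 9.26, 9.74, 9.47, 8.61 and 9.05 in stable, and 9.21, 9.14, 9.21 and 8.80 in parental arrays. Selected arrays lay above parental ones by 0.48 (SE 0.11, adjusted p = 0.0217), and stable arrays were more spread than either. ASAH1, the acid ceramidase, ranged over 12.15 to 12.48 in selected, 11.77 to 12.13 in stable and 11.81 to 12.13 in parental arrays, a difference of 0.37 from parental cells (SE 0.09, adjusted p = 0.036). NPC2, the soluble partner of NPC1, at 0.34 (adjusted p = 0.118), PSAP, the precursor of the saposins, at 0.22 (adjusted p = 0.271) and the thioesterase PPT1 at 0.07 (adjusted p = 0.788) did not pass.

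The 8 membrane protein genes were all above 0, with 4 higher. GPNMB, a glycoprotein of lysosomes and melanosomes, had 10.06, 10.87, 10.22, 10.76 and 10.86 in selected, 9.78, 8.02, 9.60, 9.51 and 9.19 in stable, and 8.98, 9.55, 9.51 and 9.33 in parental arrays. It had the largest difference of the 47, 1.21 (SE 0.18, adjusted p = 0.00384), a 2.32-fold change, and its lowest selected array stood above all 9 others. The 3 melanocyte markers beside it averaged 6.02 to 6.26 in selected, 6.05 to 6.27 in stable and 6.02 to 6.36 in parental arrays, none above the olfactory level. SCARB2, the receptor that carries glucocerebrosidase to lysosomes, had 9.79, 9.92, 9.57, 9.75 and 9.81 in selected, 9.71, 9.66, 9.46, 9.16 and 9.08 in stable, and 9.21, 9.36, 9.0 and 9.0 in parental arrays. Its difference was 0.63 (SE 0.10, adjusted p = 0.00427), with the stable arrays of R1, R3 and R5 also above all parental ones. LAMP2, a major lysosomal membrane glycoprotein, had 10.88, 10.76, 10.56, 10.73 and 10.80 in selected, 10.61, 10.38, 10.35, 10.21 and 10.20 in stable, and 10.28, 10.34, 10.22 and 10.12 in parental arrays. The difference was 0.51 (SE 0.08, adjusted p = 0.00474). LAMP1, its relative, had 10.69, 10.90, 10.50, 10.83 and 10.88 in selected, 10.54, 10.33, 10.48, 10.33 and 10.10 in stable, and 10.51, 10.46, 10.27 and 10.30 in parental arrays. Although the call was made, at 0.38 (SE 0.10, adjusted p = 0.0384), the selected array of R5 lay just below the highest parental array. The calcium channel MCOLN1, at 0.34 (adjusted p = 0.0516), and the mannose 6-phosphate receptor IGF2R, at 0.40 (adjusted p = 0.0739), missed the threshold with no overlap between the groups. The margins were narrow, at 9.99 (lowest selected) over 9.96 (highest parental) for MCOLN1 and 9.58 over 9.57 for IGF2R. CD63 and CLN3 were at 0.16 and 0.12 (adjusted p = 0.345 and 0.444).

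All 8 pump genes were likewise above 0, and 2 were higher. ATP6AP1, an accessory protein of the pump, had 11.46, 11.65, 11.45, 11.55 and 11.63 in selected, 11.19, 11.04, 11.15, 11.06 and 11.00 in stable, and 11.42, 11.09, 11.07 and 11.03 in parental arrays. Its difference was 0.40 (SE 0.09, adjusted p = 0.0255), and parental replicate 1 stood close to the lowest selected array. ATP6V1A, the catalytic subunit, had 10.68, 10.81, 10.76, 10.87 and 10.96 in selected, 10.67, 10.48, 10.63, 10.36 and 10.38 in stable, and 10.57, 10.48, 10.40 and 10.28 in parental arrays. It differed by 0.39 (SE 0.08, adjusted p = 0.0195). ATP6V1D, a subunit of the rotor, was at 0.52 but varied more (SE 0.15, adjusted p = 0.0573), and ATP6V1B2 was at 0.25 (adjusted p = 0.0858) and ATP6V0D1 at 0.35 (adjusted p = 0.128). The class median was 0.30.

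Of the 5 autophagy genes WIPI1, which binds the lipid mark of forming autophagosomes, was higher. It had 9.39, 9.42, 9.44, 9.69 and 9.73 in selected, 9.49, 9.09, 9.47, 9.05 and 9.16 in stable, and 9.07, 9.11, 8.86 and 9.07 in parental arrays. The difference was 0.51 (SE 0.10, adjusted p = 0.0102), and all selected and 3 stable arrays, those of R1, R5 and R7, lay above every parental one. GABARAPL1, a ubiquitin-like protein of autophagosome membranes, was at 0.40 (adjusted p = 0.067). The cargo receptor SQSTM1 was at 0.08, UVRAG, a partner of the lipid kinase complex of autophagy, at 0.03, and MAP1LC3B, the standard marker protein of autophagosomes, at -0.17 (adjusted p = 0.656, 0.907 and 0.341).

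**Figure D3:**
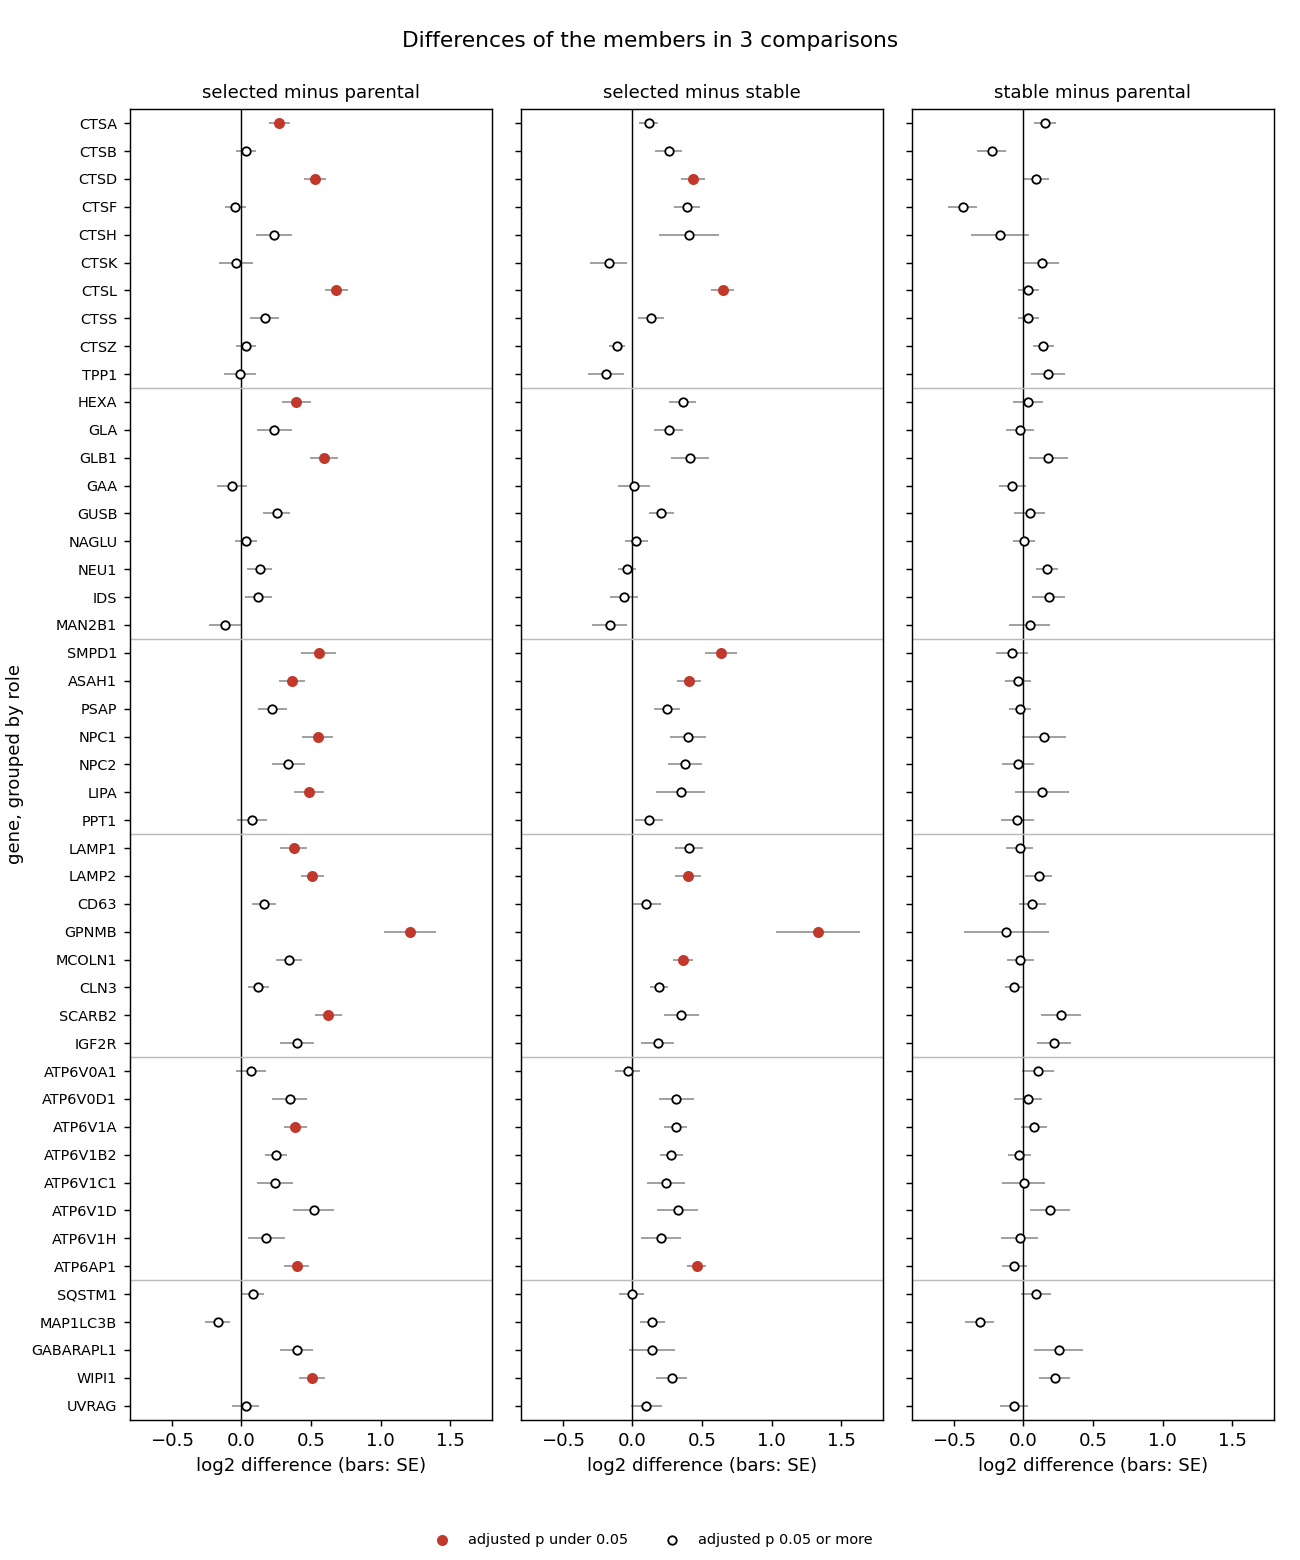
Log2 difference of each of the 47 genes with its standard error, for selected minus parental, selected minus stable and stable minus parental, with filled points at an adjusted p under 0.05. Of the 47, 16, 8 and 0 are filled, all to the right of 0.

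By role, the medians for selected against parental cells were 0.39 for membrane proteins, 0.37 for lipid handling, 0.30 for the pump, 0.13 for glycan-degrading enzymes, 0.10 for proteases and 0.08 for autophagy. Leaving out 1 array moved the glycan-degrading median to between 0.063 (without parental replicate 3) and 0.18 (without parental replicate 1), that of proteases to between 0.063 (without the selected array of R6) and 0.128 (without that of R5), and that of autophagy to between 0.04 (without parental replicate 3) and 0.14 (without parental replicate 1). Differences between these medians were not tested. The count of 16 depended on single arrays, and so did the count over all genes, which was 1273 with every array. Without parental replicate 4, 8 members were called, when 517 of all genes were. Without the selected array of R7 it was 8 members and 621 genes, and without that of R3 it was 9 members and 818 genes. With the olfactory mean in the fit as a covariate 22 members were higher, along with 1480 of all genes in place of 926, adding NPC2, MCOLN1, IGF2R, ATP6V0D1, ATP6V1B2 and ATP6V1D.

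In stable against parental cells 0 of the 47 genes were called, and over all genes 0.00544% were. Without adjustment, limma gave p under 0.05 for 2 of the 47 (4.26%), against 6.09% of all genes. These were the cysteine protease CTSF and MAP1LC3B. CTSF had 8.51, 7.97, 8.17, 8.26 and 8.30 in the stable arrays of R1, R3, R5, R6 and R7, against 8.78, 8.69, 8.67 and 8.56 in parental replicates 1 to 4. Every stable array was therefore below every parental one, the case for 1.42% of all genes and no other member, but the difference of -0.44 (SE 0.10) did not pass (adjusted p = 0.331). MAP1LC3B differed by -0.31 (SE 0.11, adjusted p = 0.597). Among glycan-degrading enzymes NEU1 had the smallest p, at 0.17 (adjusted p = 0.832), and among membrane proteins SCARB2, at 0.27 (adjusted p = 0.87). In lipid handling it was NPC1, at 0.15, and in the pump ATP6V1D, at 0.19 (adjusted p = 0.999 for both). The median over members was 0.04, with 28 of 47 above 0, and 0 members had every stable array above every parental one (0.826% of all genes). The 16 genes higher in selected cells lay between -0.12 for GPNMB and 0.27 for SCARB2 in stable cells. The parental arrays are shared between these comparisons. An adjusted p above the threshold does not show that stable and parental cells were alike.

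Selected against stable cells sets the sublines in the inhibitor against the same sublines at later passage without it. In a fit that did not pair the arrays by subline, 8 of the 47 genes were higher and 0 lower. Over all genes 2.16% were called, 1.54% higher and 0.614% lower. The median difference was 0.26, against 0.00 over all genes and 0.05 over those kept by the filter on dim signal, and 39 of 47 were above 0. Unadjusted p was under 0.05 for 25 of the 47 (53.2%), against 15.3% of all genes. Selected exceeded stable in all 5 sublines for 21 members, and for 11.8% of all genes. CTSK, a collagen-degrading protease that did not rise above the olfactory level, was the 1 member lower in all 5, as were 7.35% of all genes.

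The 8 genes were CTSL at 0.65 (SE 0.08, adjusted p = 0.009), CTSD at 0.44 (SE 0.09, adjusted p = 0.0288), SMPD1 at 0.64 (SE 0.12, adjusted p = 0.0234), ASAH1 at 0.41 (SE 0.09, adjusted p = 0.0372), GPNMB at 1.33 (SE 0.30, adjusted p = 0.0462), LAMP2 at 0.40 (SE 0.09, adjusted p = 0.0476), MCOLN1 at 0.36 (SE 0.07, adjusted p = 0.0307) and ATP6AP1 at 0.46 (SE 0.07, adjusted p = 0.0116). All but MCOLN1 were also higher than in parental cells, a comparison that shares the selected arrays. MCOLN1, the calcium channel of lysosomes, had 9.99, 10.08, 10.02, 10.03 and 10.25 in selected arrays, against 9.71, 9.81, 9.77, 9.70 and 9.56 in stable ones. Selected and stable arrays did not overlap for 7 of the 8, LAMP2 being the exception, nor for CLN3 and ATP6V1A, which did not pass. Such a separation was found in 2.83% of all genes, and its reverse in 0 members and 1.33% of all genes. By role 2 proteases, 2 genes of lipid handling, 3 membrane proteins and 1 pump gene were higher, and 0 glycan-degrading enzymes and 0 autophagy genes. The smallest p among glycan-degrading enzymes was that of HEXA, at 0.36 (adjusted p = 0.0816). Among autophagy genes it was that of WIPI1, at 0.28 (adjusted p = 0.243).

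Taking each selected array minus its own stable array, the 8 genes were higher in every subline but not by equal amounts. For R1, R3, R5, R6 and R7 the GPNMB difference was 0.27, 2.85, 0.62, 1.25 and 1.67, a mean of 1.33 ± 1.01 (SD, n = 5). The large value of R3 comes with the lowest GPNMB signal of any array, 8.02 in its stable array. ASAH1 was the most even of the 8, at 0.35, 0.58, 0.32, 0.38 and 0.40 in the same order. CTSL was higher by 0.52, 0.89, 0.40, 0.49 and 0.93, and SMPD1 by 0.43, 1.04, 0.66, 0.35 and 0.69. R3 and R7 thus had the largest differences for CTSL, and R3 for SMPD1.

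**Figure D4:**
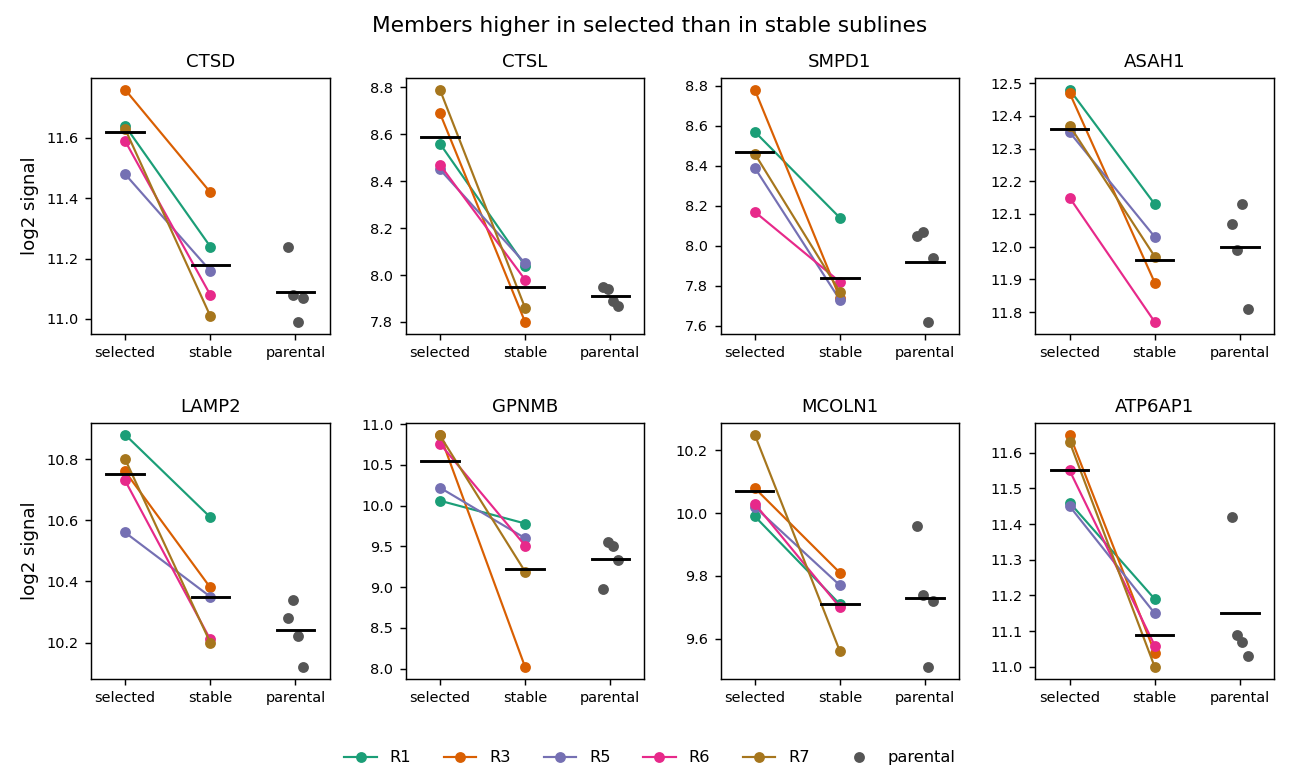
Log2 signal of the 8 genes higher in selected than in stable cells. Lines join the selected and the stable array of 1 subline, grey points are the 4 parental replicates and black bars are group means. Every line runs downwards to the stable array.

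With subline as a block, which uses this pairing, 10 genes were higher and 0 lower (4.92% of all genes were called, 3.61% higher and 1.31% lower). The 2 added were CTSF at 0.39 (adjusted p = 0.0489) and GLB1 at 0.41 (adjusted p = 0.0346), and none of the 8 was lost. The call for CTSF goes with low stable arrays, as its selected arrays, at 8.50 to 8.71, overlapped the parental ones. The count of 8 rested on few arrays, and so did the 397 calls over all genes. Without both arrays of R7 0 members and 0 of all genes were called, and with the block as well 0 members and 159 genes. There were 2 without the selected array of R3 or R7 or the stable array of R5, R6 or R7, when 86 to 152 of all genes were called. There were 3 without the selected array of R1 (195 of all genes), 4 without that of R6 (248) and 14 without the stable array of R1 (962). With the olfactory receptor mean, which was lower in the selected array of each subline, as a covariate, 7 were higher and TPP1 was lower, at -0.34 (adjusted p = 0.048), while GPNMB lost its call. With that mean and the block together 0 members and 0 of all 18398 genes were called, and the median over members was 0.17, against 0.26 without them.

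The sublines differed in how far the genes as a group stood apart. For R1, R3, R5, R6 and R7 the median of selected minus stable over the 47 was 0.08, 0.25, 0.08, 0.34 and 0.46, and 34, 34, 29, 42 and 43 of the 47 were higher in the selected array. In the same order the olfactory receptor mean differed by -0.12, -0.14, -0.11, -0.03 and -0.38. The medians and counts of single sublines were not set beside the same values over all genes. Whether a shift of whole arrays contributed to them was not tested. Averaged over members relative to parental cells, the selected arrays of R1, R3, R5, R6 and R7 stood at 0.27, 0.34, 0.16, 0.25 and 0.37, and the stable arrays at 0.18, 0.05, 0.08, -0.09 and -0.07. Parental replicates 1 to 4 were at 0.07, 0.08, -0.11 and -0.04. Every selected array was thus above every parental one, while among stable arrays R1 was above them, R5 level with the highest and R3, R6 and R7 lower than it. Group means were 0.28 ± 0.08 in selected, 0.03 ± 0.11 in stable (SD, n = 5 each) and 0.00 ± 0.09 in parental arrays (SD, n = 4).

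R1 and R5 differed least between their conditions, both arrays of R1 being high and both of R5 moderate. For the membrane proteins the class mean was 0.36 in selected R1 and 0.25 in stable R1, but 0.63 in selected R7 and -0.10 in stable R7. The mean of the autophagy genes differed by -0.017 in R1, -0.003 in R3 and -0.001 in R5, but by 0.31 in R6 and 0.37 in R7. Single autophagy genes went both ways where that mean was near 0. In R3 SQSTM1 was at -0.35 and WIPI1 at 0.32, and in R1 GABARAPL1 was at -0.26 and MAP1LC3B at 0.21. Lipid handling was the class with the largest difference in R1 and R5, at 0.20 and 0.21, and membrane proteins in the other 3 sublines, at 0.62, 0.49 and 0.72 in R3, R6 and R7. With 1 array per subline and condition these values have no test.

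**Figure D5:**
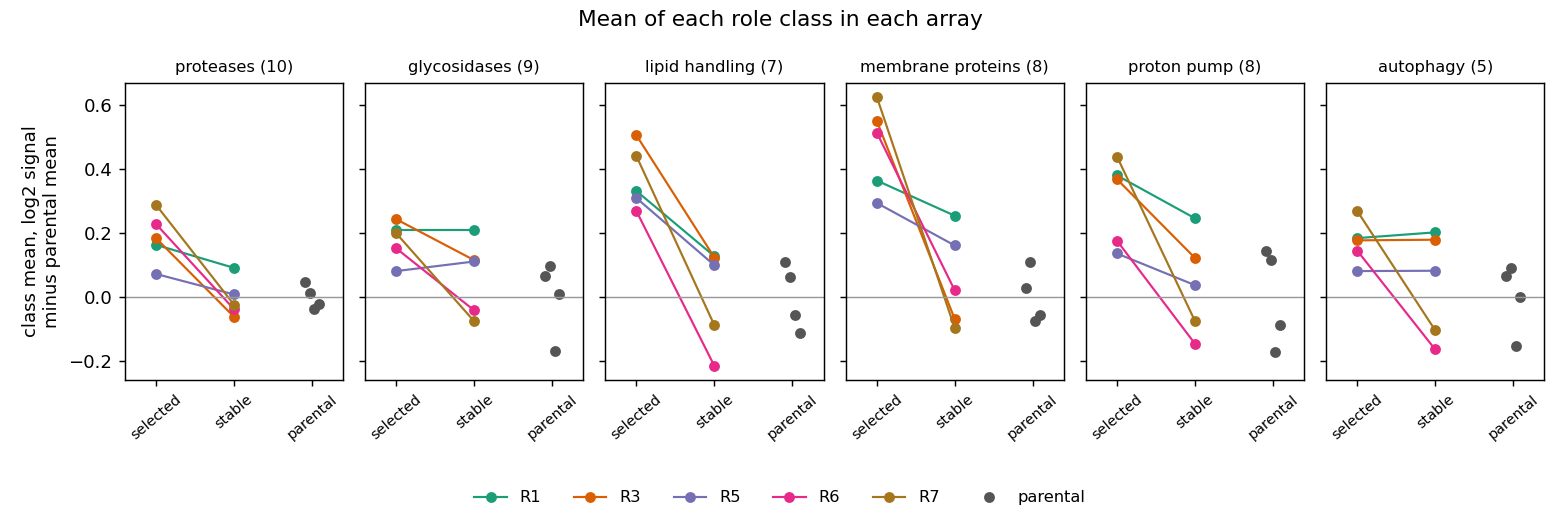
Mean of each role class in each array, as log2 signal minus the parental mean, with lines joining the selected and the stable array of a subline and grey points for parental replicates. Lipid handling and membrane proteins have every selected array above every stable and parental one, and autophagy lines are flat in R1, R3 and R5.

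An F test between sublines over the 10 resistant arrays, adjusted for growth condition, called 0 of the 47 genes (0.12% of all genes). Unadjusted p was under 0.05 for 8 of 47 (17.0%), against 15.8% of all genes. These 8 were CTSH, CTSK, TPP1, GLB1, LIPA, ATP6V0D1, ATP6V1H and UVRAG. CTSH had the smallest p, 0.00894 (adjusted p = 0.182), with both R1 arrays high, at 8.74 in selected and 8.64 in stable, and the stable array of R3 low at 7.26.

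Genes of the same pathway outside the 47 were read from a list of 119, of which 109 were measured. In selected against parental cells 25 were higher and 1 lower, beside 5.03% and 1.89% of all genes. The median was 0.21, against -0.01 over all genes, and 92 of 109 were above 0. Other hydrolases had 11 of 22 higher, and the 4 with the smallest adjusted p were the fucosidase FUCA1 at 0.80 (adjusted p = 0.00148), the ganglioside activator GM2A at 0.64 (adjusted p = 0.00157), the legumain protease LGMN at 0.59 (adjusted p = 0.0028) and the mannosidase MANBA at 0.60 (adjusted p = 0.0075). FUCA1 had 8.88, 8.78, 8.57, 8.78 and 9.06 in selected, 8.05, 8.29, 8.04, 7.86 and 8.04 in stable, and 8.16, 8.06, 7.91 and 7.92 in parental arrays. Its selected arrays, like those of CTSL, stood above all 9 others.

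Counts by class are read beside the 5.03% of all genes that were higher. Other pump subunits had 4 of 9 higher, which were ATP6V0E1 at 0.46, ATP6AP2 at 0.55, ATP6V0A2 at 0.48 and ATP6V0B at 0.44. Other membrane proteins had 3 of 16, the sialic acid carrier SLC17A5 at 0.35, the vitamin carrier protein LMBRD1 at 0.43 and LAPTM4A at 0.26. Other autophagy genes had 7 of 44, including the kinase ULK2 at 0.64, the protease ATG4A at 0.95, the lipid transfer protein ATG2B at 0.51 and ATG101, a subunit of the starting kinase complex, at 0.57. The adaptor GGA1, which sorts hydrolase receptors, was the 1 lower, at -0.53 (adjusted p = 0.0453), and no gene of the list was called lower without parental replicate 1, 2 or 4 or the selected array of R3, R5, R6 or R7. Fusion machinery had 0 of 7 called, at 0.07 to 0.44. The MiT factors TFEB, TFE3, MITF and TFEC had 0 of 4 called, at 0.03 to 0.28, the highest being TFE3 (adjusted p = 0.196). The mean of the MiT factors was 7.14 to 7.39 in selected, 7.15 to 7.16 in stable and 7.12 to 7.19 in parental arrays. That mean is under the olfactory level of 7.764, but it does not show which of the factors are. A change in a factor under that level could be missed. The 25 became 14 to 16 on leaving out parental replicate 1, 3 or 4 or the selected array of R1, R3 or R7, settings under which 517 to 1074 of all genes were called.

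Of these 109 genes 0 were called in stable against parental cells, where 7 had an unadjusted p under 0.05 by limma, and the median was 0.04. Of all genes 6.09% had such a p there, so the 7 are near that share. In selected against stable cells 1.54% of all genes were higher and 0.614% lower, and 3.61% and 1.31% with the subline block. Of the 109 genes 10 were higher and 0 lower, 19 and 1 with the block, with a median of 0.18. They included FUCA1 at 0.76, GM2A at 0.66, SCPEP1, a carboxypeptidase, at 0.67 and LGMN at 0.50, the pump subunits ATP6V0A2, ATP6V0B and ATP6V0E1 at 0.42, 0.36 and 0.31, and ULK2 and ATG4B at 0.52 and 0.58. The count was 0 without both arrays of R7 and 2 with the block as well. It ran from 2 to 5 without any 1 of the selected arrays, or of the stable arrays other than R1, beside 86 to 338 of all genes, and was 22 without the stable array of R1. With the block and the olfactory receptor mean it was 0, as it was for all genes.

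Of the 27 measured cell type markers 0 were called in any of the 3 group comparisons by limma. Before adjustment, p was under 0.05 for 4 in selected against parental cells, 0 in stable against parental and 3 in selected against stable, all of them epithelial. Over all genes these shares were 20.3%, 6.09% and 15.3%. The 4 in selected against parental cells were MUC16, at -0.88, and CDH1, EPCAM and KRT8, at 0.30, 0.25 and 0.18. Their adjusted p by limma ran from 0.0591 to 0.221. With the subline block 1 marker, the epithelial cadherin CDH1, was higher in selected than in stable cells, at 0.59 (adjusted p = 0.0384). The 9 macrophage markers averaged 6.51 to 6.66 in selected, 6.45 to 6.69 in stable and 6.51 to 6.69 in parental arrays. The 6 fibroblast markers averaged 6.85 to 7.07 in selected, 6.87 to 7.16 in stable and 6.89 to 7.18 in parental arrays. The 9 epithelial markers averaged 11.09 to 11.34, 10.99 to 11.40 and 11.12 to 11.31 in the same groups. The mean level of each list thus overlapped between the groups, which does not show that single markers were alike. In bulk RNA fewer cells with a transcript and less of it per cell cannot be told apart.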

How the data were processed

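RNA of 5 selected, 5 stable and 4 parental samples was labelled with biotin and hybridised to Affymetrix whole-transcript arrays, per the labels. The deposited table holds 32295 rows of log values, taken as log2 from their range of 4.34 to 14.92, since no scale is given. How background was corrected and arrays normalized is not given in the sources used here. The platform annotation named 1 gene for 19148 rows, and symbols were updated through RefSeq (GRCh38.p14) for 19118 of them. Of several rows the one with the highest mean was kept, leaving 18398 genes.

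Differences were tested with limma 3.58.1 (lmFit and eBayes, two-sided) in R 4.3.3, with Benjamini-Hochberg adjustment over all genes at 0.05. The same steps were run on simulated arrays with noise independent between genes and arrays. Such arrays cannot test effects of whole arrays or of pairing by subline. The members and lists were chosen with earlier results of these data known. Named in full are members called in a comparison and the smallest p of each role, with values per array for the 14 largest called differences, and of other pathway genes up to 4 called per list.

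Each subline has 1 selected and 1 stable array, so subline pairs them. Their deviations from the group means correlated at 0.636, 0.050, 0.371, 0.546 and -0.468 for R1, R3, R5, R6 and R7. The selected arrays of R1 and R6 correlated best with their own stable array. Those of R3, R5 and R7 did so with the stable arrays of R5, R7 and R1, at 0.118, 0.637 and 0.397. The expression values thus bear out the pairing only in part. A fit with subline as a block is printed beside calls that it alters.

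Alternatives were median centring, quantile normalization, leaving out genes under the 40th percentile of signal, averaging the rows of each gene, trended and robust variance, the olfactory receptor mean as a covariate, 1 fit of all 14 arrays, and leaving out each array or subline R7. The block without subline R7 was added after the data were seen.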

Additional observations from a re-analysis of the deposited data

Results flagged for a closer look

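In 141 groups of 4 or 5 arrays, 1 for each of the 47 genes in each group, a single array stood far from the others by Dixon's test in 7. Chance gives about 1 in 20. CTSB was 11.89 in the stable array of R3, above 11.38 to 11.53 in the other stable arrays, and SMPD1 was 8.14 in the stable array of R1, above 7.73 to 7.82. SQSTM1 was 11.13 in the selected array of R7, above 10.96 to 11.01 in the other selected arrays. Among parental arrays CTSZ was 9.43 in replicate 3, below 9.64 to 9.67, and WIPI1 was 8.86 in the same replicate, below 9.07 to 9.11. LIPA was 8.80 in replicate 4, below 9.14 to 9.21, and ATP6AP1 was 11.42 in replicate 1, above 11.03 to 11.09.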

How the results depend on the processing

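No direction turned round among the differences of single genes followed through the alternatives, of which 16 belong to selected against parental cells, 10 to selected against stable cells and 6 to stable against parental cells. In stable against parental cells 0 members were called under all 16 alternatives. Of the 16 genes higher in selected than in parental cells, 8 kept their call in all 16 alternatives, namely CTSD, CTSL, GLB1, NPC1, GPNMB, SCARB2, LAMP2 and WIPI1. CTSA lost its call in 11, LAMP1 in 8, ASAH1 in 7, HEXA in 6, ATP6AP1 in 5, LIPA and SMPD1 in 4 and ATP6V1A in 3. The count of 16 was 8 to 16 on leaving out single arrays, and 14 to 22 under the other settings. Of the 8 genes higher in selected than in stable cells, 0 kept their call in all 20 alternatives. CTSL and ATP6AP1 lost it in 3, SMPD1 in 8, CTSD in 10, ASAH1 in 11, LAMP2 in 13 and GPNMB and MCOLN1 in 14. The count of 8 was 2 to 14 on leaving out single arrays, 5 with median centring, 10 with the subline replicate block, 0 without both arrays of R7, 0 with the block and without them, and 0 with the block and the olfactory receptor mean. With that mean alone 1 member, TPP1, was lower. Fewer arrays leave fewer degrees of freedom in the settings without arrays, and the cause of the other changes was not tested. Among the 47 members, pairing by subline changed the calls of CTSF and GLB1 and no other. Signal over background limits CTSK, CTSS and GAA among the members.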
